A study of Zea mays with 27 samples.

Results

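GAPC1 (LOC542367), a cytosolic glyceraldehyde-phosphate dehydrogenase, and pgd2 (LOC541700), a 6-phosphogluconate dehydrogenase, are maize genes of sugar-phosphate oxidation. Their probes were taken by gene identifier from the platform's gene table, which gave 6 probes for GAPC1 and 2 for pgd2, 8 of the 18303 probes with values and 2 of the 532 genes named by a probe. All 8 had a value on every array. The genes were selected on their values on these same arrays (how far their probes varied, agreed within a gene and moved against the other gene), so those values are given as descriptions without a test.

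The series profiled above-ground tissue of 14-day-old seedlings of the F1 hybrid, made with Mo17 as the female, and of the inbred parents B73 and Mo17. Each RNA pool came from 6 seedlings of a genotype. For each of 9 replications, 3 cDNA arrays with Cy3 in channel 1 and Cy5 in channel 2 joined the 3 genotypes in a loop, so that each pool was on 2 arrays and 27 arrays resulted. The labels used here name a genotype on 1 array only, S1, where F1 was in Cy3. The arrays S1 to S27 were therefore left without groups, no genotype was compared, and no mean over arrays is given. An error over arrays served only as a yardstick in the closing section. Because only ratios between channels were used, the tissue label could not be checked against leaf markers.

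In the cytosol, glyceraldehyde-phosphate dehydrogenase carries out the NAD-dependent oxidation step of glycolysis and passes its product towards pyruvate. The 6-phosphogluconate dehydrogenase takes the other route out of the hexose phosphate pool, the oxidative pentose phosphate pathway, where it forms NADPH and ribulose 5-phosphate for biosynthesis. Maize has several cytosolic GAPC genes, and pgd1 and pgd2 are known as the loci of the cytosolic 6-phosphogluconate dehydrogenase isozymes.

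All values below are log2 ratios of the channels of an array, relative to that array's median over probes, if the deposited values are natural logs as their spacing was read. If they are a constant multiple of natural logs, the values, spreads and counts at 2-fold would change and the correlations would not. The numerator channel is not stated, so a value is only above or below the array's median. Whether probes lie on the same side of an array does not depend on the numerator. Over arrays, the interquartile range of all ratios ran from 0.40 to 1.57 (median 0.75). On 15 arrays (S1 to S15, the 15-array set below) a single repeated value filled at least 2% of probes, and on the other 12 (S16 to S27, the 12-array set) it filled less. The 8 probes of GAPC1 and pgd2 never held such a value, whereas 4117 of all 18303 probes did on at least 1 array.

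The 6 GAPC1 probes moved over a similar and moderate range. Spread here means the 90th minus the 10th percentile of a probe's values over the 27 arrays. Probe 2155 had the narrowest spread, 1.21, and ran from -0.99 (S21) to 0.87 (S2) with a median of 0.12. Probe 5735 had the widest, 1.60, and ran from -1.40 (S19) to 0.88 (S17) with a median of -0.26.

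Probe 4138 had a spread of 1.48, from -1.63 (S19) to 1.35 (S15) with a median of -0.38. Probe 9676 had a spread of 1.55, from -1.71 (S21) to 1.09 (S15) with a median of -0.16. The arrays S15, S19 and S21 thus held the extremes of several GAPC1 probes, and S19 was also the array with the widest ratios overall. Probe 13829 had a spread of 1.37, from -1.26 (S19) to 1.29 (S24) with a median of 0.05, and probe 14968 had 1.43, from -1.04 (S4) to 1.03 (S24) with a median of -0.19. No GAPC1 probe kept to a single side of the array median, since the number of arrays above it ran from 9 (probe 14968) to 14 (probes 2155 and 13829) of 27.

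The pgd2 probes differed more in width. Probe 10157 had a spread of 1.52, from -1.20 (S15) to 1.14 (S22) with a median of 0.18. Probe 11749 had 2.42, from -1.26 (S15) to 3.05 (S22) with a median of 0.37. Both reached their lowest value on S15 and their highest on S22, and probe 11749 lay farther from the array median than probe 10157 on 22 of 27 arrays. They leaned to the upper side, with 18 arrays above for probe 10157 and 17 for probe 11749.

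All 8 probes spread over 1 log2 unit or more, which is 2-fold, as did 79.2% of all 18303 probes and 65.0% of the 1607 probes with 1 gene name. Reaching 2-fold therefore does not set them apart. In the 12-array set alone, probe 10157 spread over 0.80 and probe 2155 over 0.97, and in the 15-array set all 8 exceeded 1. Probe 11749 spread over 3.12 in the 12-array set and 1.77 in the 15-array set. The median spread was 1.46 over GAPC1 probes and 1.97 over pgd2 probes, against 1.17 over gene-named probes and 1.54 over all probes. Without S11, S20 and S22, the arrays highest in pgd2, the median spread over pgd2 probes was 1.37. Probe 11749 was wider than 86.7% of gene-named probes, and the other members were wider than 53% (probe 2155) to 72.9% (probe 5735) of them.

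**Figure D1:**
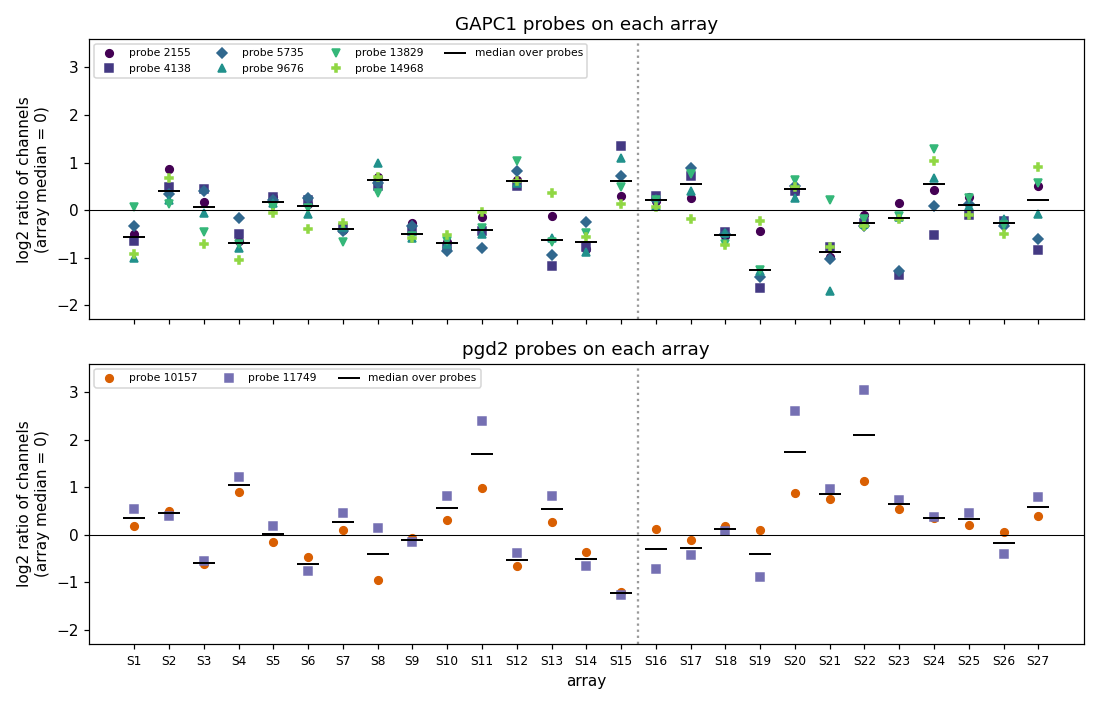
Log2 ratio of the channels relative to the array median, for the 6 GAPC1 probes (top) and the 2 pgd2 probes (bottom) on each of the 27 arrays; short black bars are the median over a gene's probes and the dotted line divides S1 to S15 from S16 to S27. GAPC1 probes lie close together on S22 and far apart on S21, and both pgd2 probes are highest on S22 and lowest on S15.

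The GAPC1 probes varied together from array to array. Over their 15 pairs the Pearson correlation across 27 arrays averaged 0.65 (Spearman 0.67) and ran from 0.24 (probes 4138 and 14968) to 0.93 (probes 4138 and 5735). All 6 probes lay above the array median on 6 arrays and all 6 below it on 10, and on the other 11 arrays they fell on both sides. Among the 62 genes with at least 6 probes, GAPC1 had the highest mean correlation between probes, where the median gene had 0.13. Among all 258 genes with at least 2 probes, 5 exceeded it. Both GAPC1 and pgd2 were selected partly on this agreement, so their ranks in it are descriptions only. The arrays share RNA pools and the probes share their target, so these correlations carry no p.

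The pgd2 probes had a correlation of 0.81 (Spearman 0.84), which 2 of the 112 genes with 2 probes exceeded. The median of those genes was 0.04. Both pgd2 probes lay above the array median on 15 arrays and both below it on 7, and they fell on opposite sides on 5. Their widest gap was on S22, at 1.14 for probe 10157 and 3.05 for probe 11749. The widest gap the other way was on S19, at 0.10 for probe 10157 and -0.89 for probe 11749.

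Within GAPC1, probes 4138 and 5735 stood apart from the other 4 on some arrays. Their mean was lower than the median of the other 4 by over 1 log2 unit on S23, S24 and S27. On S27, probes 4138 and 5735 had -0.84 and -0.60, while probes 2155, 13829 and 14968 had 0.50, 0.58 and 0.90 and probe 9676 had -0.08. On S23, probes 4138 and 5735 had -1.37 and -1.28, and the other 4 ran from -0.19 to 0.14. The spots of the pair lay in runs of 400 table rows, taken as printing blocks, whose own medians on S23 were -0.67 and -0.53.

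With each block centred on its median, the values on S23 were -0.70 for probe 4138 and -0.74 for probe 5735. Probe 9676 then had -0.61, and the other 3 probes ran from 0.22 to 0.58. Over all arrays the pair had a correlation of 0.90 after block centring, and its mean correlation with the other 4 probes was 0.58, against 0.56 before it. The mean correlation among the other 4 was 0.60 after block centring and 0.72 before it, so by this measure the pair was then about as close to them as they were to each other. The spread of the gap between the pair and the other 4 was 1.10 after block centring and 1.29 before it.

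**Figure D2:**
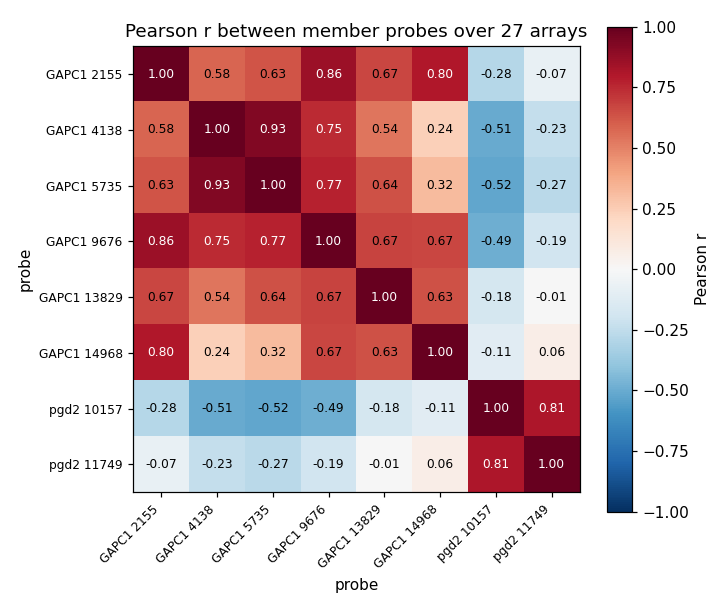
Pearson correlation between each pair of the 8 probes across 27 arrays, written in each cell and coloured from blue (-1) to red (1). Correlations within GAPC1 run from 0.24 to 0.93 and the pgd2 pair has 0.81, while those between the genes run from -0.52 to 0.06.

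Taken as the median over its probes, GAPC1 ran from -1.27 (S19) to 0.63 (S8) with a median of -0.17 over arrays. The pgd2 median ran from -1.23 (S15) to 2.09 (S22) with a median of 0.28. GAPC1 was at least 2-fold from the array median on 1 array, S19, and pgd2 was on 5. For pgd2 these were S22 at 2.09, S20 at 1.74, S11 at 1.69 and S4 at 1.06 above the array median, and S15 at -1.23 below it.

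To compare whole arrays, each probe's median over the 27 arrays was first subtracted, so the correlations are of departures from that median. Across all 18303 probes, the 4 arrays that were 2-fold above in pgd2 correlated with each other at 0.11 (S4 and S20) to 0.55 (S20 and S22). With S15, the array 2-fold below, they had -0.44 (S22), -0.43 (S20), -0.21 (S11) and -0.11 (S4). The values for S22 with S20 and with S15 were the extremes over all 351 pairs of arrays, whose median was -0.0047. These arrays thus had likeness of the same signs over all probes, weakest for S4. Probes are not independent, and the genotypes on these arrays are not known here.

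GAPC1 and pgd2 lay on opposite sides of the array median on 17 of 27 arrays and on the same side on 10. The GAPC1 median was above on 13 arrays and below on 14, and the pgd2 median was above on 16 and below on 11. Opposite sides were not counted for other pairs of genes, so no such count here can show that the opposition is unusual. GAPC1 was below and pgd2 above on 10 arrays, and GAPC1 was above and pgd2 below on 7. All 8 probes took part in such an opposition on 8 of the 12 arrays where both genes had all their probes on a single side. The difference, GAPC1 minus pgd2, is free of any single offset of an array, and ran from -2.37 (S22) to 1.84 (S15) with a median of -0.38. It was at least 2-fold on 10 arrays, 7 of them with GAPC1 lower and 3 with GAPC1 higher. Its spread over arrays was 2.65, and 2.44 with blocks of rows centred, when the genes lay on opposite sides on 19 arrays.

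As a graded relation the opposition was weak. Across 27 arrays GAPC1 and pgd2 had a Pearson correlation of -0.24 (Spearman -0.29), and the 12 pairs of a GAPC1 and a pgd2 probe ran from -0.52 to 0.06. Among the 257 other genes with at least 2 probes, 216 had a higher correlation with GAPC1 than pgd2 had. Seen from pgd2, 177 of 257 had a higher correlation with it than GAPC1 had, and the median gene had -0.11. Without S19 and S8, the arrays farthest from the median of GAPC1, the correlation was -0.31. It was -0.38 without the 3 arrays highest in pgd2, -0.39 without array centring and -0.15 without S15.

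The relation differed in value between the sets of arrays with and without a frequent repeated value. Within the 15-array set the correlation was -0.58, with the genes on opposite sides on 11 of 15 arrays. Within the 12-array set it was 0.12, with opposite sides on 6 of 12. The difference between the sets was not tested, and what else distinguishes them is not stated in the labels. Agreement within each gene was present in both sets, with a mean correlation for GAPC1 of 0.73 in the 15-array set and 0.61 in the 12-array set. For pgd2 it was 0.87 in the 15-array set and 0.94 in the 12-array set.

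**Figure D3:**
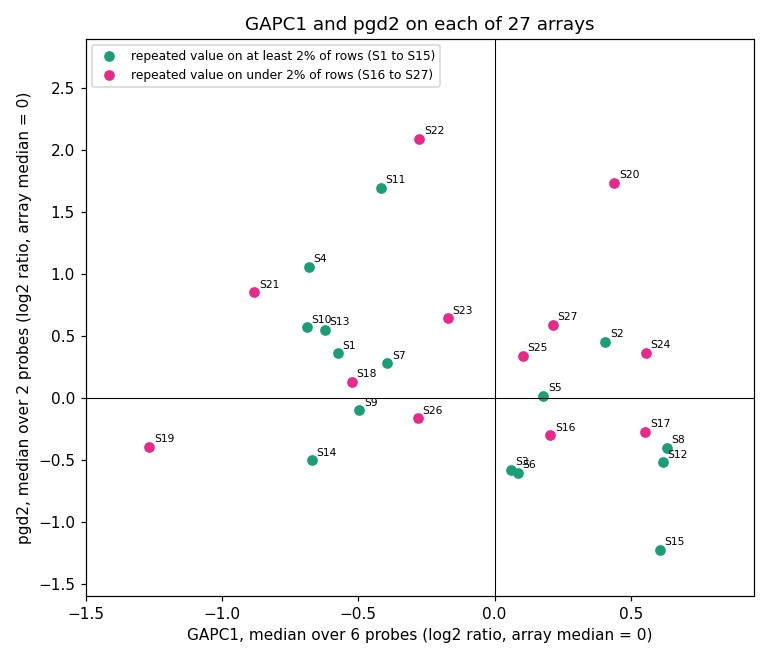
Each point is an array, with the median over 6 GAPC1 probes on the horizontal axis and the median over 2 pgd2 probes on the vertical axis, both as log2 ratios relative to the array median; colours separate S1 to S15 from S16 to S27. The points of S1 to S15 slope downwards (r = -0.58) and those of S16 to S27 do not (r = 0.12), and S11, S20 and S22 lie highest in pgd2.

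GAPC2 (LOC542718) and GAPC3 (LOC542333) encode the same cytosolic enzyme activity as GAPC1. GAPC1 correlated with GAPC2 at 0.69 (Spearman 0.72), which 7 of 257 genes exceeded, and with GAPC3 at 0.51 (Spearman 0.53), which 29 exceeded. With the mean over probes in place of the median, GAPC1 had 0.67 with GAPC2 and 0.37 with GAPC3. Between GAPC1 and GAPC2 the value was 0.89 in the 15-array set and 0.43 in the 12-array set, and between GAPC1 and GAPC3 it was 0.57 in the 15-array set and 0.44 in the 12-array set. The GAPC2 median ran from -0.50 (S4) to 0.62 (S15), and that of GAPC3 from -0.28 (S7) to 0.55 (S12). Single GAPC2 probes had a median spread of 1.46, the same as GAPC1 probes, and GAPC3 probes had 0.99.

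Pairs of probes of the same paralog gene went both ways. The correlation between probes averaged 0.10 over 21 pairs for GAPC2, from -0.46 to 0.66, and 0.05 over 15 pairs for GAPC3, from -0.45 to 0.65. GAPC3 probe 13030 correlated with the GAPC1 median at 0.80 and GAPC3 probe 7472 at -0.63, the extremes over that gene's 6 probes. The 7 GAPC2 probes ran from -0.03 (probe 5257) to 0.62 (probe 10568). GAPC2 probe 16472 correlated with pgd2 at 0.66, where the other 6 ran from -0.32 to -0.01. The cytosolic GAPC genes are similar in sequence, and how far a cDNA spot of one bound transcripts of another was not tested.

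The other genes of sugar-phosphate oxidation and fermentation were found by 56 symbols, of which 11 genes with 38 probes were present, GAPC2 and GAPC3 included. Their median spread was 1.10, and 23 of the 38 probes (60.5%) reached 2-fold, against 65.0% of gene-named probes. The highest Pearson correlation with pgd2 among the 11 was that of the probe of gpb1 (LOC542290), a subunit of the chloroplast glyceraldehyde-phosphate dehydrogenase, at 0.71 (Spearman 0.64). That probe had a spread of 2.21 and ran from -3.64 (S8) to 2.07 (S20). Its value was 0.67 in the 15-array set and 0.70 in the 12-array set, and its correlation with GAPC1 was -0.12, with -0.65 in the 15 arrays and 0.47 in the 12.

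phi1 (LOC542313), the glucose-phosphate isomerase at the head of glycolysis, correlated with pgd2 at 0.53 (Spearman 0.73), with 0.79 in the 15-array set and 0.36 in the 12-array set. Its probes had spreads of 2.73 (probe 10682) and 0.97 (probe 16236), and probe 10682 had 7.46 on its highest array. The enolases, which act late in glycolysis, had probes that disagreed, with a mean correlation between probes of 0.0022 for eno1 (LOC732811) and 0.041 for eno2 (LOC542316). Of 6 eno1 probes 2 reached 2-fold, with a widest spread of 1.69, and of 8 eno2 probes 3 did, with a widest spread of 2.55. Their medians over probes ran from -0.30 to 0.50 for eno1 and from -0.29 to 0.69 for eno2.

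Correlations of the enolases were 0.24 with GAPC1 and -0.10 with pgd2 for eno1, and -0.20 with GAPC1 and -0.28 with pgd2 for eno2. With GAPC1, eno2 had 0.30 in the 15-array set and -0.68 in the 12-array set. The aldolase gene ald1 (LOC542261) had 0.46 with GAPC1 and -0.23 with pgd2, although its 2 probes had a correlation of -0.37 with each other. The alcohol dehydrogenase gene adh1 (LOC542363) had 0.31 with GAPC1 and -0.21 with pgd2. With pgd2 it had -0.82 in the 15-array set and 0.39 in the 12-array set. Single probes stood for pdc1 (LOC542376) and pdc3 (LOC541919), pyruvate decarboxylases, and for LOC542177 (PK), with spreads of 1.86, 2.72 and 0.80. Their correlations with GAPC1 were 0.02 for pdc1, 0.23 for pdc3 and -0.31 for PK, and with pgd2 they were -0.16, -0.28 and 0.12. In all, 7 of the 11 genes had a correlation above 0 with GAPC1 and 3 with pgd2, against 149 (58%) and 85 (33.1%) of the 257 other genes with at least 2 probes.

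**Figure D4:**
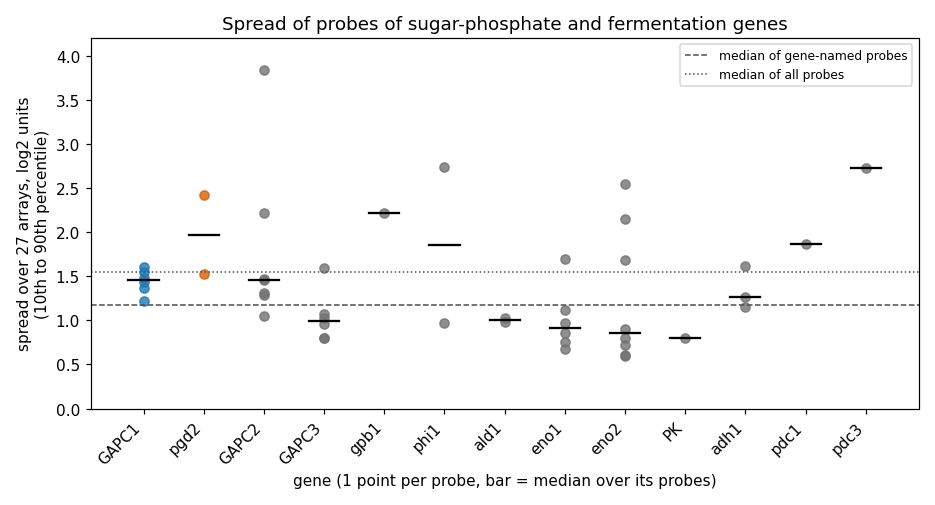
Spread over 27 arrays (90th minus 10th percentile, log2 units) of each probe of GAPC1, pgd2 and the 11 other genes found, with bars at the median over a gene's probes; the lines mark the medians of gene-named probes (1.17) and of all probes (1.54). The GAPC1 probes lie between 1.21 and 1.60, while GAPC2 probes run from 1.05 to 3.84. The widest GAPC2 probe, 2200, held the repeated value on 3 arrays, and the next widest, 16472, has 2.22.

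Among the 257 other genes with at least 2 probes, the pattern most like that of GAPC1 was sam2 (LOC542733), a gene of S-adenosylmethionine synthetase, with a correlation of 0.86 (Spearman 0.82) from 9 probes. It had 0.92 in the 15-array set and 0.83 in the 12-array set. Next were the beta-tubulin gene tub7 (LOC542705) at 0.82, LOC541942 (csu503(met)) at 0.79, the beta-tubulin gene tub6 (LOC542239) at 0.79 and ANT1 (LOC542386), a mitochondrial adenine nucleotide carrier, at 0.74. With the mean over probes in place of the median, ANT1 had 0.48, LOC541942 0.62, tub7 0.63, sam2 0.82 and tub6 0.85. First place thus depended on the processing. With blocks of rows centred, tub6 had 0.88 and sam2 0.82, and with arrays rescaled to 1 interquartile range 0.86 and 0.84. As Spearman rho both had 0.82. In each array set, without array centring and with repeated values as missing, sam2 stayed above tub6. In the 12-array set, however, tub7 had 0.89 and lay above sam2. The mean correlation between a gene's own probes was 0.51 for sam2 and 0.74 for tub6, and it was 0.18 for tub7, 0.29 for LOC541942 and 0.23 for ANT1. Farthest from GAPC1 were LOC732757 at -0.67, LOC542721 at -0.65 and LOC100125656 at -0.59. The median over the 257 genes was 0.07.

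For pgd2 the closest gene was thi2 (LOC542715), of thiamine biosynthesis, at 0.90 (Spearman 0.91) for the median of 2 probes, with 0.93 in the 15-array set and 0.86 in the 12-array set. It was followed by LOC732827 at 0.85, GRF2 (LOC100125640), a 14-3-3 protein, at 0.84, ltk1 (LOC541658) at 0.82 and GBSSIIa (LOC100125638), a granule-bound starch synthase, at 0.79. With blocks of rows centred, thi2 was the lowest of these genes, at 0.78. GRF2 then had 0.95, LOC732827 0.89, GBSSIIa 0.85 and ltk1 0.80. LOC732827 was slightly above thi2 in the 15-array set (0.94) and the 12-array set (0.86). Under the other centrings, scalings and measures tried, thi2 stayed first of these genes. The probes of some of these genes did not agree among themselves, with a mean correlation of -0.036 for thi2, -0.052 for LOC732827, 0.026 for ltk1 and 0.18 for GBSSIIa, against 0.56 for GRF2. Farthest were hsp70-4, a heat shock protein gene, at -0.69, mbd106 at -0.68 and tb1 at -0.68. The median over the 257 genes was -0.11. These genes were the ends of a ranking on the same arrays, so their values have no test. The part of the array-wide likeness of S20, S22 and S11 in them was not tested.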

How the data were processed

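Two-colour cDNA arrays were hybridised with seedling RNA, per the labels. The deposited table holds 1 signed value per spot and array, read here as a natural log ratio of the channels. The base was inferred: values repeated on an array differed by 2 ln(k), with k a whole number from 2 to 10, in 106 pairs, against 6.25 at shifted distances, with 3 against 3.50 for base 2 and 20 against 19 for base 10. Distances of ln(k) were not tried, so a constant multiple, such as doubled natural logs, remains possible. Each log2 value and each count at 2-fold depends on it. How the authors scanned, background-corrected and normalized the arrays is not given in the sources used here. Signal intensities were not used. The 27 arrays came from 9 replications and shared RNA pools, so they are not 27 independent measurements.

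Division by the natural log of 2 put the values on the log2 scale, and each array was centred on its median. Of 19200 rows, 897 were empty on every array. Probes were named from the platform's gene table (1607 probes with 1 gene, 23 with several, not named) and from synonyms in RefSeq's annotation of Zm-B73-REFERENCE-NAM-5.0, which held 515 of 532 genes. No coordinates were used. Correlations used the median over a gene's probes; MNB1b, on many probes, was left out of the rankings, which took the 5 highest and 3 lowest genes with at least 2 probes. Members and lists were chosen with earlier results of these data known. The functions were tested on simulated data. Python 3.11.15, numpy 2.4.6 and pandas 2.3.3 were used.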

Additional observations from a re-analysis of the deposited data

How the results depend on the processing

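Medians of probe spreads, the agreement of probes and the relation of GAPC1 to pgd2 were recomputed under other centring, scaling, array sets and measures; leaving out the arrays extreme in GAPC1 or pgd2 was chosen after seeing the data. The relation of GAPC1 and pgd2 turned to 0.12 within S16 to S27 and was -0.58 within S1 to S15, and the cause was not tested. Correlation of pgd2 with GAPC3, -0.04, turned to 0.10 with blocks centred, 0.20 within S16 to S27 and 0.032 as Spearman rho, and ran from -0.080 to 0.052 with an array left out; that with GAPC2, -0.34, was -0.02 with the mean over probes. The interquartile range, narrower by construction, gave spreads of 0.81 (GAPC1), 0.90 (pgd2) and 1.40 (their difference, which was 2.17 within S16 to S27). GAPC1 agreement was 0.72 with rescaled arrays and 0.73 within S1 to S15. The pgd2 agreement was 0.94 within S16 to S27 and 0.74 without S11, S20 and S22. With an array left out, GAPC1 spread was 1.40 to 1.48, pgd2 spread 1.64 to 2.04, GAPC1 agreement 0.62 to 0.68, pgd2 agreement 0.79 to 0.86, their correlation -0.35 to -0.15 and the spread of their difference 2.45 to 2.67. Of the other values, 39 for these results kept their direction and moved by less than the jackknife error over arrays. That error served only as a yardstick. It treats arrays as independent although they share RNA pools, so it cannot show that these results are stable. Among the 39 was the pgd2 spread without S11, S20 and S22, which was 1.37 against 1.97 on all arrays, with a yardstick of 0.63. No paired analysis was possible because the arrays have no genotype groups. Spot brightness over background was not used, so its limit on these values is unmeasured.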
